A study of Mus musculus with 12 samples.

Results

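The messenger RNAs encoded by mitochondrial DNA were followed in CT26 cells, an established mouse colon carcinoma line. The members were the rows of the processed expression table that lie on chromosome MT and carry the names mt-Nd1, mt-Nd2, mt-Nd4, mt-Nd5, mt-Nd6, mt-Cytb, mt-Co1, mt-Co2, mt-Co3 and mt-Atp6. They were 10 of the 12584 genes in the table and 10 of its 13 protein-coding rows on that chromosome. All 10 passed a filter of at least 1 FPKM (fragments per kilobase of gene and per 1e+06 reads) in at least 3 libraries, which 10101 genes passed. The cells had been exposed for 24 h to PBS (libraries N1 to N3), NP@M (N4 to N6), NP-D@M (N7 to N9) or NP-D@MP (N10 to N12). The labels give no genetic change in any group and do not spell out these names. The series title speaks of a nanodrug that is coated with membrane from engineered cancer cells, acts on CDKs and is paired with PD-L1 antibody treatment. Whether libraries of one group stem from different cultures is not in the labels. The p-values therefore cover the spread among these libraries alone, and that spread may be technical.

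Mitochondria keep a small circular DNA of their own, which is read from both strands into long precursor RNAs that are then cut, largely at the transfer RNAs, into ribosomal RNAs, transfer RNAs and messages. The messages encode core subunits of respiratory complexes I, III and IV and of the ATP synthase, all of which are completed by many subunits made from nuclear genes. Complex II holds no subunit from mitochondrial DNA, and mt-Nd6 is the only message read from the light strand.

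The libraries held 12.8 to 15.7 M reads in the table (M, 1e+06). The header and labels do not name the unit; it was read from the values as FPKM, and where its divisor comes from is unknown. That divisor was a library size of 28.2 to 31.1 M reads for PBS and NP@M, the 6 libraries whose treatment carries no D. It was 7.13 to 8.40 M reads for the 6 with D. Per read, a gene of 1 kb thus gained 0.0322 to 0.0355 FPKM without D and 0.119 to 0.140 FPKM with it. Many changes below are therefore also given relative to table reads, and those given in FPKM alone include this difference in divisor. Relative to table reads the median log2 change of all genes was -1.35 in NP-D@M over NP@M (the first group compared with the second). It was -0.19 in the authors' FPKM. Of the 9 epithelial and colon markers looked up, 2 had a row, Krt20 and Krt18, with summed levels of 15.1 to 18.7 FPKM without D and 73.0 to 91.1 FPKM with it. The pair went opposite ways, Krt20 from a mean of 8.67 FPKM with NP@M to 78.0 FPKM with NP-D@M and Krt18 from 6.89 to 4.46 FPKM. None of 7 retina markers had a row, although the labels' protocol speaks of retinas. Summed levels of the 6 fibroblast markers with a row were 70.6 to 86.6 FPKM without D and 11.1 to 15.4 FPKM with it. Col1a2 was the largest of them, with means of 54.3 FPKM with NP@M and 9.25 FPKM with NP-D@M. Between the same groups Pdgfra went from 0.536 to 0.372 FPKM, while Dcn alone went up, from 0.0544 to 0.355 FPKM. For the 3 immune markers with a row the sums were 2.57 to 3.25 FPKM and 9.31 to 21.3 FPKM. Ptprc was at 0 in all libraries without D and at means of 0.0226 FPKM with NP-D@M and 0.0147 FPKM with NP-D@MP. From NP@M to NP-D@M, Cd68 went from a mean of 2.38 to 12.5 FPKM and Lyz2 from 0.637 to 2.44 FPKM. Cytosolic ribosomal protein genes held 5.87 to 6.68% of the table's reads without D and 14.1 to 16.3% with it. The part of these shifts in the results on mitochondrial messages was not tested.

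The 10 messages differ in how much of their sequence is their own, and the following stretches are shown because they decide which reads can be assigned to which gene. Chromosome 1 carries a run of annotated copies, at chr1:24611535-24616197 on the minus strand of GRCm38, of part of the mitochondrial DNA. Over the first 60 bases of mt-Co3 (chrMT:8607-8666, plus strand), a subunit of complex IV, the copy Gm28437 (chr1:24613912-24613971, minus strand) holds the same letters. The copy Gm29216 (chr1:24616138-24616197, minus strand) starts within the mt-Co1 message (chrMT:6381-6440, plus strand), with the differing bases in capitals here.
mt-Co3: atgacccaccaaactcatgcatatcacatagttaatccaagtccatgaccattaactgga
Gm28437: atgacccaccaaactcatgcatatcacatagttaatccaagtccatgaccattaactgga
mt-Co1: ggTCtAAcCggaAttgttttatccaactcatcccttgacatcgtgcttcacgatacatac
Gm29216: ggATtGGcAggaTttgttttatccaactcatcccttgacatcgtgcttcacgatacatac

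The sequences are the annotated transcripts of GENCODE M21, read 5′ to 3′. Counted from 1 at the 5′ end of mt-Co1, the substitutions were T1056A, C1057T, A1059G, A1060G, C1062A and A1066T, with the base of the message first and that of the copy last. They were the only mismatches in the 492 bases that the pair shares, an identity of 98.8%. No mismatch was found between mt-Co3 and Gm28437 over 783 bases, between mt-Co2 and Gm28661 over 681 bases, between mt-Atp6 and Gm10925 over 678 bases, or between the first 876 bases of mt-Nd4 and Gm28439. A read from an identical stretch fits the message and the copy equally well, and the handling of such reads was not stated in the sources used here.

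A second pair of sequences shows where messages of opposite strands meet. mt-Nd5 (end at chrMT:13526-13565, plus strand) and mt-Nd6 (end at chrMT:13552-13591, minus strand) overlap tail to tail by 14 bases, in capitals below, so that a read there belongs to either gene unless its strand is kept.
mt-Nd5 end: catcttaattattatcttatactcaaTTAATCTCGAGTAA
mt-Nd6 end: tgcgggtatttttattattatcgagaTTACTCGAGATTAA

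The strand setting of the counting was likewise not stated in the sources used here. Among the other members, mt-Atp6 overlaps mt-Atp8 by 43 bases and mt-Co3 by 1 base, and mt-Nd4 overlaps mt-Nd4l by 7 bases, each on the same strand.

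Levels formed a high and a low set, which differed in this feature of the sequence. Each message was divided into all its words of 50 bases, and the words were looked up in the annotated transcripts of genes outside mitochondrial DNA. Copies outside annotated transcripts were not searched, so the shares found elsewhere are lower bounds. No word of mt-Nd1, mt-Cytb or mt-Nd6 occurred elsewhere, and 7.61% of the words of mt-Nd5 and 8.19% of those of mt-Nd2 did. The share was 51.1% for mt-Co1 and 62.2% for mt-Nd4, and it reached 99.5% for mt-Atp6, 99.9% for mt-Co3 and 100% for mt-Co2. The 7 messages with at least 37.8% of words of their own had mean levels of 593 to 4569 FPKM with PBS. The 3 with at most 0.475% stood at 31.3 ± 1.73 FPKM for mt-Co2, 30.6 ± 3.07 FPKM for mt-Atp6 and 17.4 ± 0.380 FPKM for mt-Co3 (SD, n = 3). Of the remaining protein-coding rows of chromosome MT, mt-Nd3 (98.0% of words elsewhere) and mt-Nd4l (98.8%) were also low, at 3.47 and 5.73 FPKM. mt-Atp8 was low too, at 1.24 FPKM, with no word in the transcripts searched. Its gene lies between mt-Co2 and mt-Atp6 and overlaps the latter. On chromosome 1 the stretch between their copies Gm28661 and Gm10925 was not searched. A copy of mt-Atp8 there would have been missed. These are 13 genes of one genome, so the pattern is a description. Over the identical stretches, reads of the 3 low members and of their copies cannot be told apart.

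**Figure D1:**
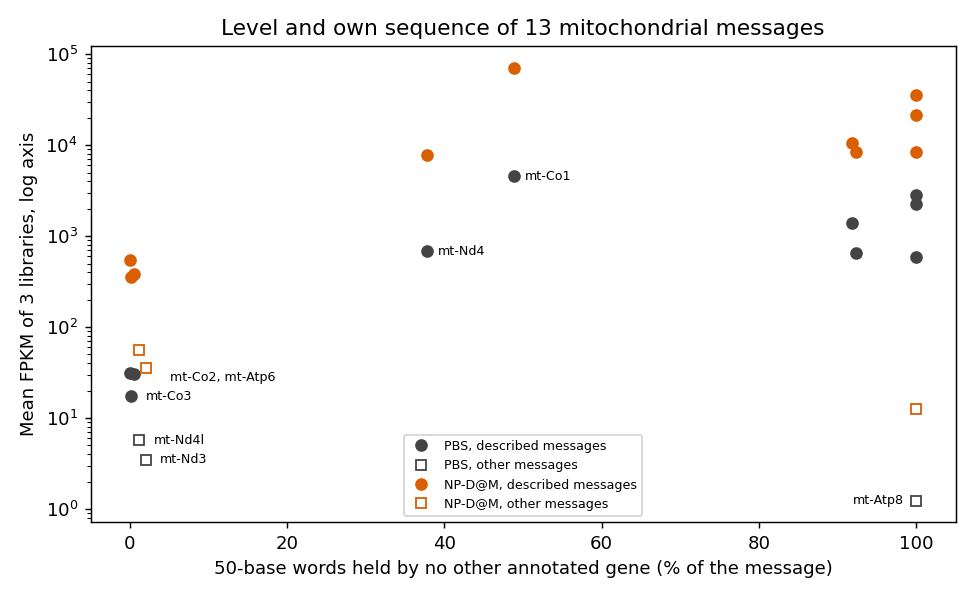
Mean FPKM over 3 libraries (log axis) of the 13 mitochondrial messages against the percentage of their 50-base words found in no annotated transcript of a gene outside mitochondrial DNA, for PBS (grey) and NP-D@M (orange); filled circles are the 10 messages described and open squares mt-Nd3, mt-Nd4l and mt-Atp8. The 7 described messages with at least 37.8% of words of their own lie at 593 FPKM or above. mt-Atp8 is low on the right, but the chromosome 1 stretch between the copies Gm28661 and Gm10925 was not searched for it.

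Among the 7 high members the order of levels with PBS was mt-Co1, mt-Cytb, mt-Nd1 and mt-Nd2, each apart from the next, followed by mt-Nd4, mt-Nd5 and mt-Nd6, whose neighbouring ranges overlapped. The levels of mt-Co1 and mt-Nd4 carry the limit of words shared with other genes. In every group mt-Co1, mt-Cytb and mt-Nd1 kept their places and stayed apart from the next. Below them mt-Nd2 overlapped mt-Nd5 with NP-D@M, and mt-Nd6 moved to the fourth place with NP-D@MP, where it overlapped mt-Nd2. In the low set mt-Co2 and mt-Atp6 overlapped in all 4 groups, and mt-Co3 was below both with PBS and NP@M but overlapped mt-Atp6 in the groups with D.

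**Figure D2:**
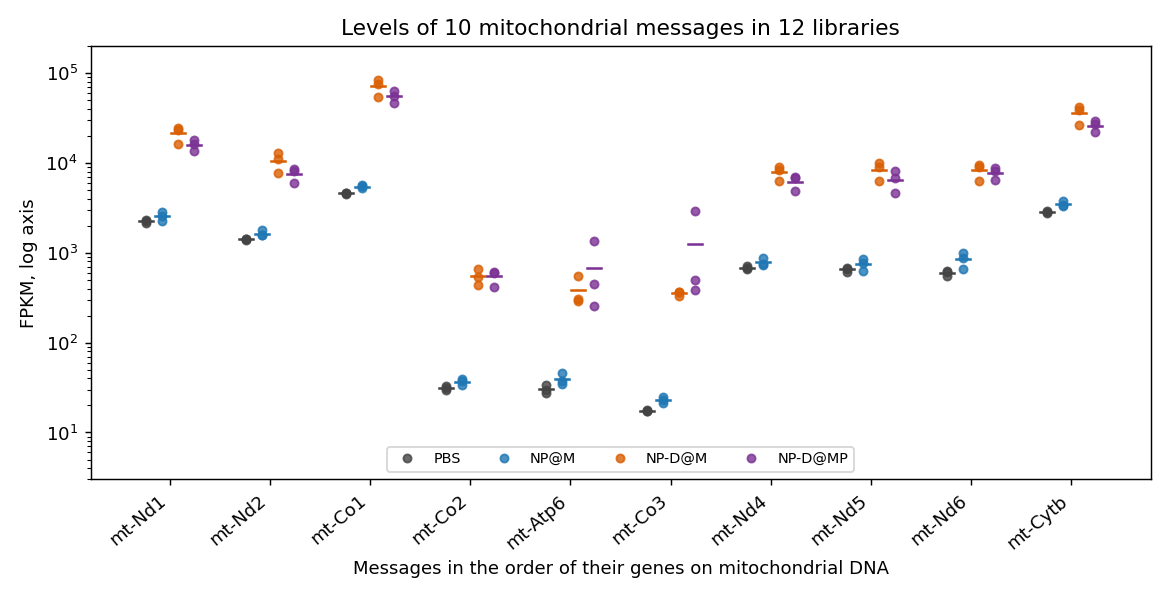
FPKM of each of the 10 messages (log axis) in 12 libraries, with messages in the order of their genes along the mitochondrial DNA; points are libraries, short lines are means of 3, and colours are the treatments. For each message all points with D lie above all points without it in these FPKM, while under quantile normalization 5 messages had log2 changes below 0 in NP-D@M over NP@M, and mt-Co2, mt-Atp6 and mt-Co3 form the low set.

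In NP-D@M over NP@M, the pair of groups that differ by the D in their name, all 10 messages rose in the authors' FPKM and relative to table reads, but under quantile normalization 3 rose, mt-Nd2 fell and 6 were not called. The levels were 6.46-fold (mt-Nd2) to 15.3-fold (mt-Co3) higher in FPKM, with a median log2 change of 3.32 against -0.19 over all genes tested. Relative to table reads the rise was 1.82-fold to 4.30-fold. Quantile normalization gives equal ranks of different libraries equal values by construction, and its calls stood beside 37.2% of all genes called higher and 43.2% lower. A gene that keeps its rank therefore cannot change under it, and mt-Co1 had a log2 change of 0 there. The call was limma's at a Benjamini-Hochberg adjusted p under 0.05 over all 10101 genes, with changes on the log2(FPKM + 1) scale. It was made for 10 of 10 members beside 41.8% of all genes called higher, and for 10 of 10 beside 17.5% of all genes after scaling to table reads. In all 10 the groups did not overlap, beside 40.7% of all genes with NP-D@M above. In bulk RNA a different number of cells and a different amount of RNA per cell cannot be told apart.

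Complex I, which takes electrons from NADH, holds 5 of the members, all of them membrane subunits that belong to its proton-pumping arm. mt-Nd1 (ENSMUSG00000064341, chrMT:2751-3707) stood at 2296, 2268 and 2153 FPKM with PBS, at 2537, 2817 and 2252 FPKM with NP@M, at 23176, 24401 and 16197 FPKM with NP-D@M and at 13648, 17805 and 16095 FPKM with NP-D@MP. The groups with and without D did not overlap, N9 was the lowest library with NP-D@M and N10 the lowest with NP-D@MP. mt-Nd1 was 8.38-fold higher in NP-D@M over NP@M (log2 change 3.05, SE 0.16, limma adjusted p = 5.51e-09).

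mt-Nd2 (ENSMUSG00000064345, chrMT:3914-4951) had the smallest rise of the members. Its levels were 1390, 1415 and 1413 FPKM with PBS, 1564, 1781 and 1558 FPKM with NP@M, 11029, 12876 and 7781 FPKM with NP-D@M and 6027, 8632 and 8039 FPKM for NP-D@MP. The PBS libraries lay close together and those with D were spread widely, again with N9 and N10 low. The rise in NP-D@M over NP@M was 6.46-fold (log2 change 2.66, SE 0.18, limma adjusted p = 4.95e-08) and 1.82-fold relative to table reads (limma adjusted p = 0.000769).

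mt-Nd4 (ENSMUSG00000064363, chrMT:10167-11544) ran from 666 to 704 FPKM with PBS, 732 to 874 with NP@M, 6212 to 9022 with NP-D@M and 4897 to 6955 for NP-D@MP, and rose 9.98-fold in NP-D@M over NP@M. mt-Nd5 (ENSMUSG00000064367, chrMT:11742-13565) stood at 678, 617 and 658 FPKM with PBS, at 768, 856 and 627 FPKM with NP@M, at 8998, 9950 and 6306 FPKM with NP-D@M and at 4600, 8059 and 6788 FPKM with NP-D@MP. It rose 11.2-fold, the largest rise among the complex I messages. The light-strand message mt-Nd6 (ENSMUSG00000064368, chrMT:13552-14070, minus strand) stood at 605, 553 and 622 FPKM with PBS, at 867, 1000.1 and 658 FPKM with NP@M, at 9515, 9073 and 6347 FPKM with NP-D@M and at 6477, 8735 and 8066 FPKM with NP-D@MP. Its NP@M libraries all lay above its PBS libraries, N6 being closest, and it rose 9.88-fold in NP-D@M over NP@M.

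Complex III has a single mitochondrial message, that of cytochrome b, the subunit in which electrons pass between quinone sites. mt-Cytb (ENSMUSG00000064370, chrMT:14145-15288) stood at 2872, 2792 and 2909 FPKM with PBS, at 3396, 3756 and 3278 FPKM with NP@M, at 39093, 41978 and 26623 FPKM with NP-D@M and at 21947, 29255 and 26777 FPKM with NP-D@MP. PBS, NP@M and the groups with D lay apart from each other, and NP-D@M overlapped NP-D@MP. The rise in NP-D@M over NP@M was 10.3-fold (log2 change 3.34, SE 0.16, limma adjusted p = 3.16e-09).

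Complex IV, cytochrome c oxidase, reduces oxygen, and its catalytic core is made of the products of mt-Co1, mt-Co2 and mt-Co3. mt-Co1 (ENSMUSG00000064351, chrMT:5328-6872) was the most abundant member in every library. It stood at 4601, 4635 and 4471 FPKM with PBS, at 5650, 5510 and 5212 FPKM with NP@M, at 76334, 83531 and 53837 FPKM with NP-D@M and at 46265, 63848 and 55604 FPKM with NP-D@MP. The rise in NP-D@M over NP@M was 13.1-fold (log2 change 3.68, SE 0.16, limma adjusted p = 1.16e-09) and 3.67-fold relative to table reads.

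mt-Co2 (ENSMUSG00000064354, chrMT:7013-7696), whose product takes up electrons from cytochrome c, stood at 31.3, 33.0 and 29.6 FPKM with PBS, at 33.5, 39.04 and 37.2 FPKM with NP@M, at 533, 434 and 666 FPKM with NP-D@M and at 618, 601 and 414 FPKM with NP-D@MP. mt-Co3 (ENSMUSG00000064358, chrMT:8607-9390) stood at 17.9, 17.1 and 17.3 FPKM with PBS, at 21.2, 24.5 and 23.2 FPKM with NP@M, at 367, 329 and 362 FPKM with NP-D@M and at 495, 387 and 2880 FPKM with NP-D@MP. Library N12 alone held 16102 reads in mt-Co3, against 2302 to 2905 in N10 and N11. mt-Atp6 (ENSMUSG00000064357, chrMT:7927-8607), which encodes the membrane subunit of the ATP synthase next to its rotor ring, stood at 30.0, 33.9 and 27.8 FPKM with PBS, at 37.2, 46.1 and 34.8 FPKM with NP@M, at 304, 293 and 546 FPKM with NP-D@M and at 255, 1345 and 453 FPKM with NP-D@MP. Here N11 and N9 were the high libraries, so the single high values of mt-Co3 and mt-Atp6 sat in different libraries of NP-D@MP.

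The 3 low members rose as well in NP-D@M over NP@M, by 14.9-fold for mt-Co2, 15.3-fold for mt-Co3 and 9.68-fold for mt-Atp6. Their chromosome 1 copies were higher as well. All folds and log2 changes of this paragraph are in FPKM and so include the difference in divisor. Gm28437 stood at 22.6 ± 2.03 FPKM with NP@M and 271 ± 51.0 FPKM with NP-D@M (SD, n = 3), 12.004-fold higher, and the folds were 14.02 for Gm28661 and 8.32 for Gm10925. With the reads of message and copy added, an alternative chosen after seeing the data, the log2 changes of mt-Co2, mt-Co3 and mt-Atp6 were 3.83, 3.74 and 3.15, against 3.84, 3.88 and 3.19 for the messages alone. In NP-D@MP, Gm10925 stood at 208, 343 and 274 FPKM and Gm28437 at 203, 261 and 224 FPKM, so the values of mt-Atp6 in N11 and of mt-Co3 in N12 had no counterpart of that size in the copies.

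In NP-D@MP over PBS all 10 members rose in FPKM, from 5.38-fold for mt-Nd2 to 71.9-fold for mt-Co3, whereas under quantile normalization 3 rose and mt-Cytb, mt-Nd1 and mt-Nd2 fell, beside 37.6% of all genes higher and 43.5% lower under that normalization. The calls in FPKM stood beside 43.2% of all genes called higher and 47.3% lower, and all 10 members lay above PBS without overlap, beside 44.7% of all genes. Relative to table reads all 10 were again called higher, beside 17.6% of all genes, with folds from 1.45 to 19.4. The top of that range rested on N12, without which the log2 change of mt-Co3 was 4.57 instead of 5.48. mt-Atp6 likewise had a log2 change of 4.10, and 3.44 without N11. Among the 7 high members the folds were 5.38 to 13.1, with mt-Nd6 at the top, and mt-Co1 rose 12.1-fold (log2 change 3.58, SE 0.16, limma adjusted p = 1.42e-09).

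In NP@M over PBS no member was called. The levels were 1.13-fold (mt-Nd1) to 1.42-fold (mt-Nd6) those of PBS, with log2 changes of 0.17 to 0.48 and limma adjusted p from 0.448 to 0.816. The groups did not overlap for 8 of the 10 members, all with NP@M the higher, beside 12.4% of all genes, and they overlapped for mt-Nd1 and mt-Nd5. Of the 10101 genes, limma called 0 higher (a background of 0%) and 1 lower, with 1092 at an unadjusted p under 0.05, and voom on the recovered reads called 0. For mt-Nd6 the 95% interval of the log2 change was 0.07 to 0.90 and for mt-Co1 it was -0.09 to 0.60. Each group enters 2 of the 4 comparisons, which are therefore not independent of each other.

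Between the groups with D, NP-D@MP over NP-D@M, none of the 10 members was called. The background was 0.0396% of all genes called higher and 0.0099% called lower by limma, with 1713 genes at an unadjusted p under 0.05, and voom on the recovered reads called 0 genes. The 7 high members had log2 changes of -0.47 (mt-Nd2) to -0.09 (mt-Nd6), and their groups overlapped. The 95% interval was -0.81 to -0.09 for mt-Cytb and -0.50 to 0.32 for mt-Nd6. Here too the spread over all 12 libraries was used, and a fit of the 6 libraries compared alone called 0 members. mt-Co3 was the single member whose groups did not overlap, at a log2 change of 1.22 (SE 0.55, limma adjusted p = 0.293), beside 9.57% of all genes higher without overlap, and that value was 0.31 without N12. Without N9, 4 members (mt-Co1, mt-Cytb, mt-Nd1 and mt-Nd2) were called lower, with log2 changes of -0.54, -0.65, -0.59 and -0.67, beside 2.87% of all genes called lower and 9.59% higher, and the number of all genes called went from 5 to 1259.

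The share of the table's reads held by the 10 messages together shows the spread between libraries. It was 3.27, 3.20 and 3.29% with PBS and 3.93, 4.08 and 3.65% with NP@M. It was 12.9, 14.1 and 8.88% with NP-D@M and 7.25, 10.1 and 9.01% for NP-D@MP. The means were 3.25 ± 0.0453%, 3.88 ± 0.219%, 11.98 ± 2.75% and 8.77 ± 1.41% (SD, n = 3). The groups without D lay close together and apart from those with D, and N9 lay within the range of NP-D@MP.

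**Figure D3:**
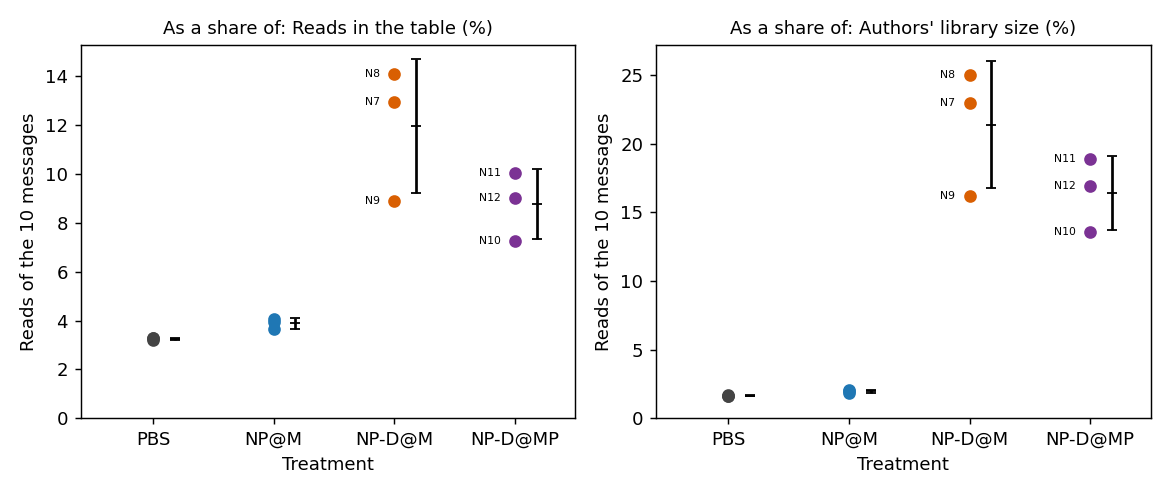
Reads of the 10 messages as a percentage of the reads in the table (left) and of the library size used by the authors (right) in each library, by treatment; points are libraries and bars are mean ± SD of 3. Both panels put the libraries with D above those without, at 7.25 to 14.1% against 3.20 to 4.08% on the left, and N9 is the lowest of NP-D@M.

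The 7 high members shared this spread. Their coefficients of variation were 1.01 to 6.003% with PBS, 4.10 to 20.5% with NP@M, 18.6 to 24.4% with NP-D@M and 13.2 to 27.0% for NP-D@MP. Expressed as deviations from the group mean over 12 libraries, the 21 pairs of high members had Pearson correlations of 0.797 to 0.981 with a median of 0.935, a description of values that share the libraries and their scaling. Pairs of a high and a low member ranged from -0.624 to 0.415. For the low set the coefficients of variation reached 37.5% with NP-D@M and 112% for NP-D@MP.

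Each library was then rescaled to the same sum of the 10 members, which describes the make-up of their assigned reads without reference to any library size. Of the words of mt-Co1, mt-Nd4, mt-Atp6, mt-Co3 and mt-Co2, 51.1 to 100% also occur elsewhere. How reads from such words were assigned is unknown, so the shares may differ from the true proportions of the messages. With PBS, mt-Co1 made up 34.9 ± 0.535% of the summed FPKM of the members, mt-Cytb 21.8 ± 0.533%, mt-Nd1 17.1 ± 0.442% and mt-Nd2 10.8 ± 0.212% (SD, n = 3). In NP@M these shares were 35.1, 22.3, 16.2 and 10.5%. In NP-D@M mt-Co1 held 43.2 ± 0.295%, mt-Nd1 12.9 ± 0.172% and mt-Nd2 6.38 ± 0.284%, and in NP-D@MP they held 43.3 ± 1.00, 12.5 ± 0.435 and 5.92 ± 0.185%. mt-Cytb held 21.7% in the former group and 20.4% in the latter.

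In NP-D@M over NP@M the members called on this scale were the first 3 messages after the ribosomal RNAs. Relative to the sum, mt-Nd2 fell by 0.72 on the log2 scale (SE 0.11, limma adjusted p = 3.21e-05) and mt-Nd1 fell by 0.33 (SE 0.11, limma adjusted p = 0.0109), while mt-Co1 rose by 0.30 (SE 0.11, limma adjusted p = 0.0181). These 3 members were called beside 2.41% of all genes higher and 86.7% lower on this scale. mt-Nd2 was called lower under each alternative run for this comparison. The call on mt-Nd1 was lost when the sum left out mt-Co1 (limma adjusted p = 0.253) and when only the 6 libraries compared entered the fit (limma adjusted p = 0.0574). The call on mt-Co1 was lost in the latter fit (0.0809), with a pseudocount of 0.1 (0.0569) and without N5 (0.0693, all limma adjusted p). Calls gained were those on mt-Co2 without N8 (limma adjusted p = 0.0184) or with mt-Co1 left out of the sum (0.0377), and on mt-Co3 in the fit of 6 libraries (0.0385).

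In NP-D@MP over PBS, 6 members were called on the same scale, beside 3.27% of all genes higher and 85.6% lower. mt-Nd2 fell by 0.86 (SE 0.11, limma adjusted p = 5.43e-06) and mt-Nd1 fell by 0.46, while mt-Co1, mt-Nd6, mt-Co2 and mt-Co3 rose by 0.31, 0.43, 0.82 and 2.27 (limma adjusted p from 0.00130 to 0.0154 for these 5). The call on mt-Co1 was lost with a pseudocount of 0.1 (limma adjusted p = 0.0509) and that on mt-Co2 without N10 (limma adjusted p = 0.0726), and mt-Co3 rose by 1.401 without N12. mt-Atp6 was not called, but it was without N10 (limma adjusted p = 0.0187) and with mt-Co1 left out of the sum (0.0384). mt-Cytb, mt-Nd4 and mt-Nd5 were not called in either comparison, with log2 changes between -0.11 and 0.09. No member was called in NP@M over PBS, beside 0.0396% of all genes higher and 0.168% lower, or in NP-D@MP over NP-D@M, beside 0.0099% higher and 0% lower. Without N9 the last comparison had 3 members called higher, mt-Co2, mt-Co3 and mt-Atp6, beside 36.9% of all genes higher and 0.218% lower.

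**Figure D4:**
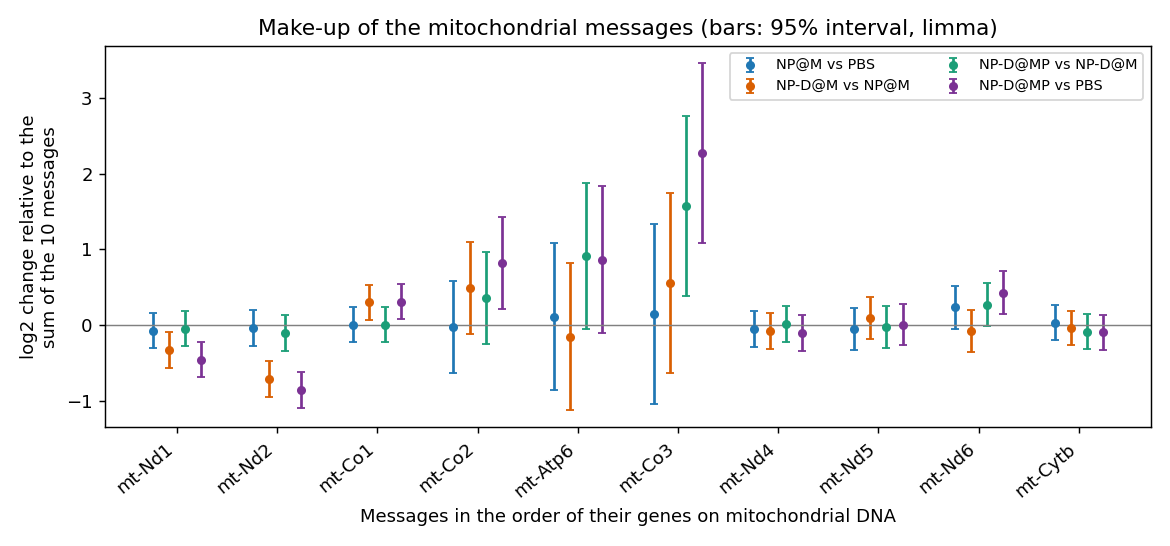
Log2 change of each message after every library was scaled to the same sum of the 10 messages, in the order of their genes, for 4 comparisons; points are limma estimates and bars their 95% intervals. mt-Nd1 and mt-Nd2 lie below 0 in both comparisons of a group with D and one without it, mt-Co1 lies above 0, and the intervals of mt-Co2, mt-Atp6 and mt-Co3 are the widest.

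A ratio of neighbouring genes is free of library size altogether. mt-Nd2 stood at 0.647 ± 0.0399 times mt-Nd1 with NP@M and at 0.495 ± 0.0287 times with NP-D@M (SD, n = 3), and at 0.629 ± 0.0259 with PBS and 0.475 ± 0.0301 with NP-D@MP. The libraries without D ran from 0.605 to 0.692 and those with D from 0.442 to 0.528, without overlap. The ratio was singled out after the shares were seen and was not tested.

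mt-Nd6 and mt-Nd5 end at the same place on opposite strands, and their ratio was compared between groups with an exact two-sided permutation test. The ratio was 0.911 ± 0.0298 with PBS, 1.12 ± 0.0603 with NP@M, 0.992 ± 0.0739 with NP-D@M and 1.23 ± 0.166 for NP-D@MP (SD, n = 3). It was apart and higher in NP@M over PBS, in NP-D@MP over NP-D@M and in NP-D@MP over PBS, each with an exact permutation p = 0.10, the smallest that 3 against 3 libraries allow, and 0.133 adjusted over the 4 comparisons. NP-D@M and NP@M overlapped (exact permutation p = 0.20). With 3 against 3 libraries this permutation test cannot reach the threshold. With mt-Cytb in place of mt-Nd5, mt-Nd6 stood at 0.207 ± 0.00822, 0.241 ± 0.0351, 0.233 ± 0.0145 and 0.298 ± 0.00306 in the same order. With this partner PBS (0.198 to 0.214) and NP@M (0.201 to 0.266) overlapped (exact permutation p = 0.30). NP-D@MP stayed apart from NP-D@M and from PBS (exact permutation p = 0.10 for each).

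The other rows of chromosome MT gave the background of the same DNA. The 12S ribosomal RNA mt-Rnr1 stood at 150 ± 34.0 FPKM with NP@M and 1533 ± 238 FPKM with NP-D@M, and the 16S ribosomal RNA mt-Rnr2 at 223 ± 34.1 and 1291 ± 313 FPKM (SD, n = 3). Both rose, by 3.36 and 2.51 on the log2 scale (limma adjusted p = 3.21e-09 and 5.66e-08), and 2.87-fold and 1.62-fold relative to table reads, while under quantile normalization mt-Rnr2 fell by 0.46 and mt-Rnr1 was not called. mt-Rnr2 was 1.20 to 1.76 times mt-Rnr1 in the 6 libraries without D and 0.752 to 0.904 times in the 6 with it. The ranges did not overlap. This ratio was also singled out after its values were seen and was not tested.

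Of the 14 transfer RNA rows 11 rose and none fell in NP-D@M over NP@M in FPKM, but relative to table reads 6 rose and mt-Tq fell, and under quantile normalization 4 rose and none fell. All genes called higher were 41.8%, 17.5% and 37.2% on these scales. The median log2 change in FPKM was 2.17, and in NP-D@MP over PBS, where 12 rose in FPKM, 7 relative to table reads and 5 under quantile normalization, it was 2.70. Transfer RNAs are short, and the mature molecules are poorly caught by standard messenger RNA libraries. The largest rise in NP-D@M over NP@M was that of mt-Tc, from 87.1 ± 15.01 to 1627 ± 614 FPKM, 18.7-fold in FPKM (SD, n = 3) and 5.25-fold relative to table reads. mt-Tn rose 12.1-fold, mt-Tw 10.2-fold, mt-Te 8.29-fold, mt-Tp 7.80-fold and mt-Ty 6.42-fold in FPKM. Relative to table reads these rises were 3.42-fold, 2.89-fold, 2.33-fold, 2.19-fold and 1.81-fold in the same order. Smaller rises were those of mt-Th (4.33-fold, with overlapping groups), mt-Tl1 (4.24-fold), mt-Ts2 (2.90-fold), mt-Ta (2.85-fold) and mt-Tl2 (2.71-fold), and none of these 5 was called relative to table reads, where mt-Ts2, mt-Ta and mt-Tl2 stood at 0.812, 0.798 and 0.759 times their NP@M level. mt-Ti, mt-Tq and mt-Tt, which had at most 16 reads in any library, were not called in FPKM. Of the 3 remaining messages mt-Nd4l and mt-Nd3 rose 8.22-fold and 8.32-fold in FPKM, and 2.31-fold and 2.34-fold relative to table reads. mt-Atp8 was not called (log2 change 1.80, SE 0.80, limma adjusted p = 0.0511), with 54 reads in N9 against 2 and 7 in N7 and N8. None of these 19 rows was called in NP@M over PBS or NP-D@MP over NP-D@M.

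Nuclear genes whose products work with the mitochondrial messages were looked up in 9 lists, and differences between lists were not tested. In all lists the counts stand beside 41.8% of all genes called higher and 47.7% lower in FPKM. The shares were 17.5% and 70.6% relative to table reads, and 37.2% and 43.2% under quantile normalization. Counts under quantile normalization are given for the complexes and the transcription list only. In the authors' FPKM all tested nuclear subunits of the respiratory complexes were called higher in NP-D@M over NP@M: 36 of 36 for complex I, 10 of 10 for complex III with cytochrome c, 13 of 13 for complex IV and 16 of 16 for the ATP synthase. Their median log2 changes were 2.87, 2.68, 3.57 and 3.16, beside 3.32 for the 10 mitochondrial messages and -0.19 for all genes. Complex II, which has no mitochondrial message, gave 4 of 4 with a median of 2.79. Relative to table reads, the counts called higher and lower were 30 and 5 for complex I, 8 and 1 for complex III, 13 and 0 for complex IV, 13 and 0 for the ATP synthase, and 4 and 0 for complex II. Under quantile normalization they were 31 and 3, 8 and 1, 12 and 1, 11 and 4, and 4 and 0 in that order.

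By the rule for named genes, Ndufa10 of complex I rose from 21.9 ± 0.440 to 169 ± 7.58 FPKM, 7.70-fold. Cycs, which encodes cytochrome c, rose from 13.6 ± 1.05 to 234 ± 31.4 FPKM, 17.2-fold. Ndufa4 of complex IV rose 10.03-fold, Atp5mpl of the ATP synthase 14.6-fold and Sdhb of complex II 8.95-fold (limma adjusted p at most 1.25e-10 for each). Each of these 5 also rose relative to table reads, by 1.09, 2.21, 1.48, 1.98 and 1.31 on the log2 scale.

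Most genes that copy and transcribe mitochondrial DNA were lower. Of 16 tested genes of transcription and the nucleoid, the protein-DNA body of the mitochondrial genome, 12 fell and 2 rose in NP-D@M over NP@M, with a median log2 change of -1.02. Tefm, the elongation factor of mitochondrial transcription, stood at 3.60 ± 0.545 FPKM with NP@M and was listed at 0 in all 3 libraries of NP-D@M (limma adjusted p = 1.35e-08). Lonp1, a protease of the mitochondrial matrix, rose from 52.0 ± 2.02 to 230 ± 19.1 FPKM, 4.42-fold, with a log2 change of 0.30 relative to table reads and of -0.10 under quantile normalization. Relative to table reads 15 genes of the list fell and 1 rose, and under quantile normalization 9 fell and 3 rose. The shares of all genes called lower were 47.7%, 70.6% and 43.2% for FPKM, table reads and quantile normalization.

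Of 22 tested genes of mitochondrial RNA processing and stability, 12 fell and 7 rose, with a median log2 change of -0.54, beside 47.7% of all genes lower and 41.8% higher. Rexo2, an oligoribonuclease, rose from 16.9 ± 1.14 to 116 ± 7.79 FPKM, and Fastkd3 fell from 2.56 ± 0.354 to 0.131 ± 0.118 FPKM. Of 11 regulators of mitochondrial biogenesis, 8 fell and 3 rose, with a median of -0.86. Relative to table reads the counts lower and higher were 19 and 2 for processing and 9 and 0 for the regulators, beside 70.6% and 17.5% of all genes. Pprc1, a coactivator related to PGC-1, fell from 5.34 ± 0.0817 to 0.385 ± 0.368 FPKM, while Esrra, a nuclear receptor of energy metabolism, rose from 2.89 ± 0.486 to 11.8 ± 5.32 FPKM. Esrra was not called relative to table reads (log2 change 0.098, limma adjusted p = 0.662), and its log2 change under quantile normalization was 1.75.

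The list of translation factors and complex assembly was mixed, with 20 of 37 tested genes higher and 14 lower, beside 41.8% and 47.7% of all genes. Relative to table reads 5 were higher and 27 lower, shares near the 17.5% and 70.6% of all genes. Ndufaf2, an assembly factor of complex I, rose 7.76-fold, and the initiation factor Mtif3 fell from 1.84 ± 0.106 to 0.0950 ± 0.165 FPKM. No gene of the 9 lists was called in NP@M over PBS or in NP-D@MP over NP-D@M.

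**Figure D5:**
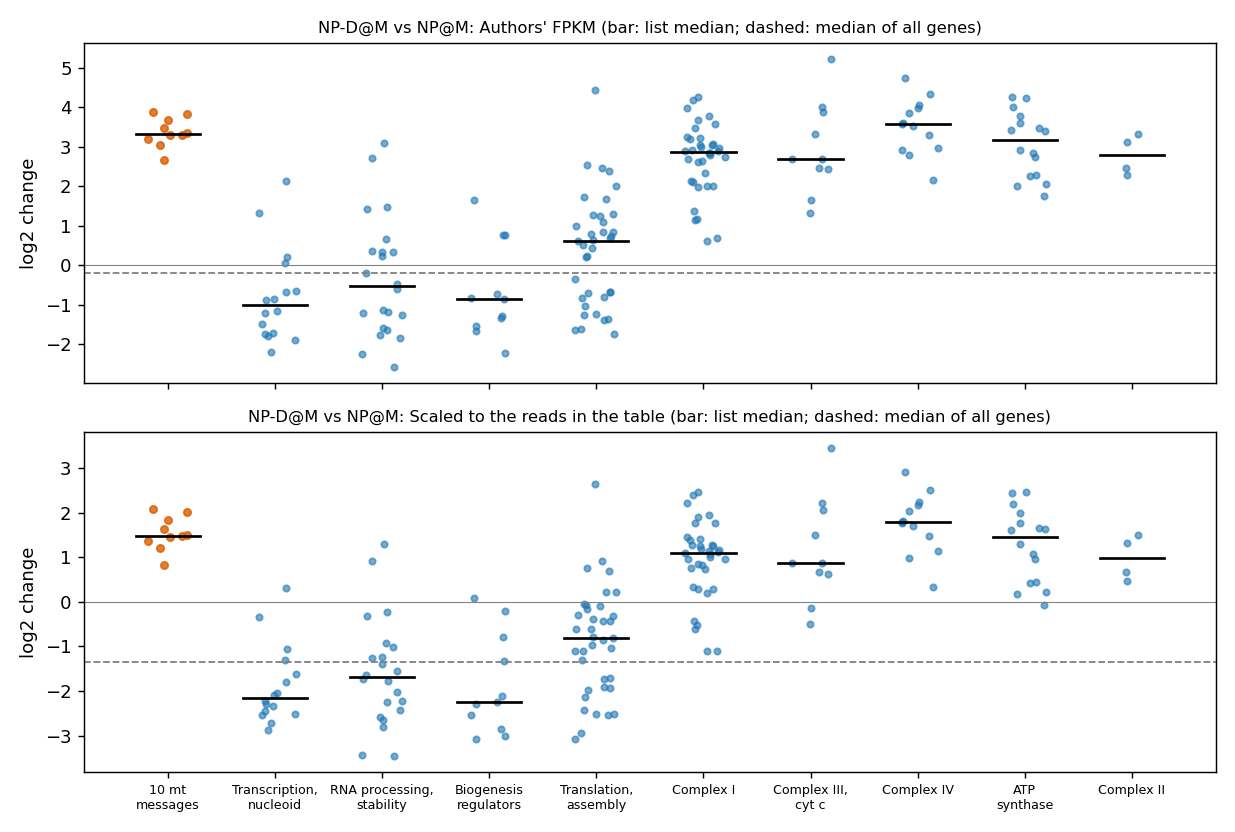
Log2 change in NP-D@M over NP@M for the 10 mitochondrial messages (orange) and the tested genes of 9 nuclear lists (blue), in the authors' FPKM (top) and relative to table reads (bottom); each point is a gene, black bars are list medians and the dashed line is the median of all genes. In both panels the medians of the messages and of the subunits of the complexes lie above 0, which for the messages quantile normalization did not keep, and the transcription list has medians of -1.02 and -2.16.

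The genes outside chromosome MT whose log2(FPKM + 1) followed the mean of the 10 members most closely over the 12 libraries were Aplp2, Cyb5b, Acadl, Sms-ps and Itgbl1, out of 5766 genes searched. Their Pearson correlations with that mean were 0.998 to 0.999, over points that share their libraries and scaling. The mean includes the single high values of mt-Atp6 in N11 and of mt-Co3 in N12. The 7 high members had lower means with NP-D@MP than with NP-D@M. Aplp2, a relative of the amyloid precursor protein, stood at 18.002 ± 0.252 FPKM with PBS, 19.8 ± 1.54 FPKM with NP@M, 112 ± 8.61 FPKM with NP-D@M and 112 ± 9.73 FPKM for NP-D@MP (SD, n = 3). Once group means were removed its correlation was 0.896.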

How the data were processed

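RNA of CT26 cells was sequenced from 12 libraries in 4 groups of 3; groups and library numbers come from the sample titles. The authors deposited one table of values with gene identifiers, coordinates and gene lengths. Neither header nor labels name the unit of the deposited values; it was taken as FPKM because value times length came in whole steps, and how the divisor was obtained is unknown. TruSeq libraries were made from total RNA, per the labels' protocols, and, per the submitters' processing notes, Bowtie 0.12.2 and mm8 were used. The coordinates were those of GRCm38: 13 of 13 protein-coding rows of chromosome MT matched GENCODE M21 exactly. The counter, the strand setting and the handling of reads with several matches were not given in the sources used here.

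In each library, 100% of the products of FPKM and gene length were multiples of the same step (relative tolerance 1e-06), so whole reads and the authors' divisor were recovered. limma 3.58.1 in R 4.3.3 was fitted to log2(FPKM + 1) over all 12 libraries and 10101 genes, with Benjamini-Hochberg adjustment. The spread of each gene was estimated over the 4 groups together and served every comparison. Folds are ratios of mean FPKM; log2 changes carry a pseudocount of 1 and understate low genes. The steps were tested on simulated data in which few genes changed. That test does not cover changes as broad as those between groups with and without D. Named are all members, all other rows of chromosome MT, the called gene of smallest p per direction in each nuclear list, and the 5 genes most like the members. The members and lists were chosen with earlier results of these data known. Alternatives were scaling to table reads or to reads outside chromosome MT, a common median ratio, quantile normalization, other filters, pseudocounts and thresholds, trend and robust settings, 6 libraries only, voom on recovered reads and leaving out each library. Adding the reads of the chromosome 1 copies and leaving out N11 and N12 together were chosen after seeing the data. Replicate libraries differed by more than counting noise (chi-square per degree of freedom 6.93 to 57.7).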

Additional observations from a re-analysis of the deposited data

How the results depend on the processing

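No paired analysis was possible because library numbers are not shared between groups. Copies limit the low members most, and also mt-Nd4 (62.2% of words elsewhere) and mt-Co1 (51.1%): a read that fits both message and copy cannot be assigned. Depth was 382 to 16102 reads per library for the low members. Of the members' log2 changes under alternatives, 735 kept direction and call and 17 reversed. Of the others, 4 gained and 4 lost the call. A reversed change was counted only as reversed, also where its call was lost. Under quantile normalization this held for mt-Cytb, mt-Nd1, mt-Nd4 and mt-Nd6 in NP-D@M over NP@M. It held for mt-Nd4 and mt-Nd5 in NP-D@MP over PBS. The cause of these changes was not tested.

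Under quantile normalization, 4 members were called in NP-D@M over NP@M and 6 in NP-D@MP over PBS. The log2 changes that reversed in the former were -0.33 for mt-Cytb, -0.35 for mt-Nd1, -0.63 for mt-Nd2, -0.018 for mt-Nd4 and -0.079 for mt-Nd6. In the latter they were -0.58 for mt-Cytb, -0.48 for mt-Nd1, -0.91 for mt-Nd2, -0.25 for mt-Nd4 and -0.055 for mt-Nd5. In NP-D@MP over NP-D@M, leaving out 1 library gave -0.15 to 0.18 for mt-Co2, -0.27 to 0.037 for mt-Nd6 and -0.10 to 1.09 for mt-Atp6. Without N11 and N12 together, chosen after seeing the data, mt-Co2 had 0.20 and mt-Atp6 -0.51.

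Genes called in NP@M over PBS numbered 1, but 2 scaled to table reads, 10 by quantile normalization, 4 with no filter, 0 with a mean of at least 5 FPKM, 2 with a pseudocount of 0.1, 2 with 6 libraries and 0 by voom, and 1 to 2 without single libraries. In NP-D@MP over NP-D@M they numbered 5, but 2 scaled to table reads or to reads outside chromosome MT, 21 with no filter, 1 with a mean of at least 5 FPKM, 26 with a pseudocount of 0.1, 0 with 6 libraries or by voom, 3 at an adjusted p under 0.01 and 2 at a log2 change of at least 1. Without single libraries there were 4 to 1259 genes, 0 to 4 members and, within the mitochondrial messages, 0 to 3 members, the highest each time without N9. In NP-D@M over NP@M, 9037 genes became 4574 with a mean of at least 5 FPKM and 5908 at a log2 change of at least 1. In NP-D@MP over PBS, 9144 became 4584 and 5977.

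The members' share of reads with PBS was 3.37% when members and ribosomal RNAs left the denominator. Of the authors' library size it was 1.64% with PBS, 1.95% with NP@M and, in the groups with D, 21.4% (NP-D@M) and 16.4% (NP-D@MP).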
